A study of Mus musculus with 3 samples.

Results

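Histone acetylation is written by acetyltransferases, erased by deacetylases and read by proteins with bromodomains, and 36 genes of this system were followed here. They were taken by gene symbol: 12 acetyltransferases and coactivators (the writers), 16 deacetylases with a corepressor (the erasers) and 8 bromodomain proteins or bromodomain scaffolds (the readers). All 36 symbols were found among the 55536 genes of the deposited tables, 22028 of which are annotated as protein-coding. The cells, macrophages grown from bone marrow of the C57BL/6J strain, had been exposed to 100 ng/ml Lipid A for 12 h, kept for 12 h after the agent was washed out, and given 100 ng/ml Lipid A again for 40 min. Lipid A is the lipid anchor of bacterial endotoxin and the ligand of Toll-like receptor 4. RNA of the chromatin fraction, which holds RNA still attached to its template along with other nuclear RNA, was depleted of ribosomal RNA and sequenced. The 3 libraries, biological replicates 1, 2 and 3, form 1 group with no untreated or once-treated cells, so no effect of Lipid A can be drawn from them. The replicates carry 1 donor label at the level of the strain, and their spread may be partly technical. In bulk RNA, fewer expressing cells and less RNA per cell cannot be told apart.

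Acetylation of lysines in histone tails loosens chromatin and creates docking sites for bromodomains, through which coactivators, remodelers and elongation factors are brought to promoters and enhancers. In macrophages, Toll-like receptor signalling recruits acetyltransferases to inflammatory genes, while deacetylases held by corepressors such as Ncor1 keep many of these genes silent in resting cells. Sirtuins are deacetylases or deacylases that consume NAD and act in the nucleus, the cytosol or mitochondria.

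The libraries held between 13802716 and 17187524 expected counts in annotated genes, and the 36 members took 41534, 50037 and 44721 of these in replicates 1, 2 and 3. The floor set by a count of 0 was taken as 3 counts, equal to 0.175 to 0.217 CPM (counts scaled to library size), and covers counting error only. Levels are given in TPM, a share of all transcripts that corrects for length and depth, so that genes can be compared. Protein-coding genes held only 27.4% to 31.9% of all TPM. All 8 macrophage markers were detected, with Adgre1 highest at a mean of 368 TPM, while none of the markers of T, B, natural killer, erythroid or mast cells or of neutrophils was. Of the remaining marker lists, 2 of 4 fibroblast markers (summed level up to 0.960 TPM) and 1 of 3 endothelial markers (Kdr, 4.03 TPM) reached the limit for detection.

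A large share of the RNA of these genes was assigned to transcripts that keep an intron. The 5 sequences below show where intron retention begins in the leading transcript of a reader, of erasers and of writers. Each runs 5′ to 3′ on the gene's strand over 30 bases of coding exon followed by the first 50 bases of the intron that the transcript keeps, with the first bases of the intron, the GT of the splice donor, in capitals. Sequence and positions are from the mouse genome build mm10 with GENCODE M21.
Brd2: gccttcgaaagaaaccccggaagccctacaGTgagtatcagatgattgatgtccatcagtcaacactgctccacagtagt
Hdac1: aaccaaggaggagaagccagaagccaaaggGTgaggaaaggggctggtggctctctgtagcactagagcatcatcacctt
Sirt7: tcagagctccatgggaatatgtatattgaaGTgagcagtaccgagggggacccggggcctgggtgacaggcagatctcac
Ncoa2: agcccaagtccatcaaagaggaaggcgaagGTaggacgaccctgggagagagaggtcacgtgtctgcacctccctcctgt
Kat6b: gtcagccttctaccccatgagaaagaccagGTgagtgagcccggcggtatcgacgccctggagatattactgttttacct
The Brd2 stretch lies on the minus strand at chr17:34113127-34113206, and transcript Brd2-204 keeps 198 intron bases there up to the next exon. The Hdac1 stretch lies on the minus strand at chr4:129516850-129516929, where Hdac1-206 keeps 263 intron bases up to the next exon. The Sirt7 stretch lies on the minus strand at chr11:120620907-120620986, where Sirt7-205 keeps 73 intron bases up to the next exon. In Ncoa2 (minus strand, chr1:13184125-13184204) and Kat6b (plus strand, chr14:21517469-21517548) the retained runs of 1891 and 2806 bases end inside the intron. Nascent unspliced RNA and a finished transcript that keeps the intron share these letters, and which of them was counted was not tested.

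Of the 36 members, 35 were detected with a mean of at least 10 expected counts, beside 49.7% of all protein-coding genes. Hdac11, the single class IV deacetylase, was the exception, with 9, 7 and 5 counts in replicates 1, 2 and 3. By level, 14 members stood in the top decile among protein-coding genes. The median member had 20.2 TPM and stood at percentile 86.6, beside a median of 7.32 TPM and percentile 75.1 over all detected protein-coding genes. The median percentile was 89.0 among writers, 79.7 among erasers and 90.2 among readers. The summed level was 309, 368 and 319 TPM for the writers in replicates 1, 2 and 3, against 468, 544 and 565 TPM for the erasers and 384, 477 and 482 TPM for the readers. Of these sums, Ncor1 alone averaged 192 TPM and Brd2 alone 239 TPM.

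**Figure D1:**
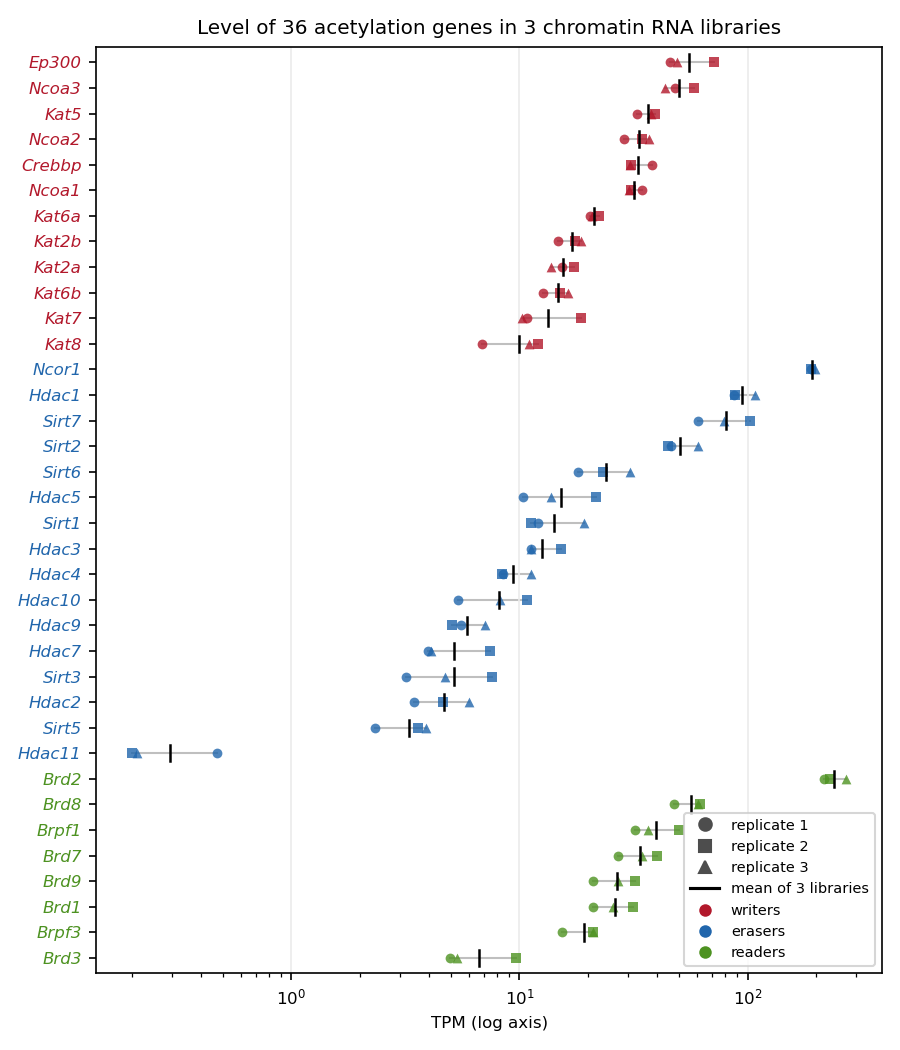
Level of each member in each library in TPM on a log axis, with writers, erasers and readers in 3 blocks ordered by mean level, symbols for the 3 replicates and a bar for their mean. Brd2 (239 TPM), Ncor1 (192 TPM) and Hdac1 (94.6 TPM) sit at the right, Hdac11 (0.293 TPM) stands apart at the left, and most neighbours in a block overlap.

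From Brd2 at 239 TPM to Sirt5 at 3.28 TPM, the detected members spanned a 72.9-fold range in the gene tables. In the order of mean levels, 32 of 35 neighbouring pairs had ranges that overlapped between libraries. The exceptions were Brd2 over Ncor1, Ncor1 over Hdac1, and Sirt5 over Hdac11, so in this measure the top of the order was separated while its middle was not. Quantified from the reads, Brd2 (278, 220 and 275 TPM) and Ncor1 (237, 183 and 200 TPM) overlapped, and Sirt5 had a mean of 23.5 TPM. By CPM, which ignores length, Ncor1 (450, 369 and 377) was above Brd2 (320, 280 and 331).

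Among the writers, Ep300, the coactivator acetyltransferase p300 of enhancers, was highest by mean level, with 45.9, 71.6 and 48.9 TPM in replicates 1, 2 and 3. Its close paralog Crebbp had 38.2, 30.9 and 30.5 TPM. The 2 ranges did not overlap, and Ep300 was above Crebbp in each library by 0.70 ± 0.47 on the log2(TPM + 1) scale (SD, n = 3), the scale and error used for every pair here. The order of this pair rested on the transcripts counted. From protein-coding transcripts only, Ep300 averaged 25.1 ± 3.32 TPM and Crebbp 28.2 ± 4.26 TPM (SD, n = 3 each), a log2 ratio of -0.16 ± 0.36. In CPM, which ignores length, the log2 ratio was 0.13 ± 0.23. Replicate 2 was also highest for Ep300 in normalised log2 CPM, but by little. The values were 7.68, 7.75 and 7.60, among the steadiest of the members. Quantified from the reads, Ep300 had 60.9, 77.7 and 51.5 TPM.

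The nuclear receptor coactivators Ncoa1, Ncoa2 and Ncoa3, p160 proteins that bring p300 and Crebbp to target genes, followed close behind. Ncoa3 had 47.9, 58.0 and 43.6 TPM. Ncoa2 had 28.6, 34.6 and 36.8 TPM. Ncoa1 had 34.6, 30.8 and 30.2 TPM. Ncoa3 stood above both others in every library, with a log2 ratio of -0.62 ± 0.24 for Ncoa1 over Ncoa3 and of -0.56 ± 0.28 for Ncoa2 over Ncoa3, while Ncoa1 and Ncoa2 changed places between libraries (-0.06 ± 0.29). By CPM the ratios to Ncoa3 were -1.17 ± 0.21 for Ncoa1 and -1.16 ± 0.30 for Ncoa2. From protein-coding transcripts only, Ncoa2 was the lowest of them, at 10.3 ± 1.95 TPM beside 26.6 ± 0.655 TPM for Ncoa1 and 40.3 ± 5.76 TPM for Ncoa3.

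The MYST family of acetyltransferases spread more widely. Kat5, the catalytic subunit of the TIP60 complex, had 32.9, 39.2 and 37.8 TPM. Kat8, the acetyltransferase of the MSL and NSL complexes, was the lowest writer, with 6.83, 12.1 and 11.0 TPM. Kat5 exceeded Kat8 by 1.81 ± 0.27 on the log2 scale, the widest gap among the pairs of writers. Of the exon bases of Kat5, 12.1% are also covered by Rnaseh2c on the opposite strand, whose own mean was 2.51 TPM. The Kat5 transcript with the highest mean TPM, Kat5-212, held 25.4% of the gene. Of its distinct words of 50 bases, 47.7% also occur in Rnaseh2c. Quantified from the reads, Kat5-203 was highest, with 0 shared words. The part of the shared words in the level of Kat5 was not tested. Kat6a and Kat6b, paralogs that work with Brpf scaffolds, had 20.3, 22.4 and 20.8 TPM and 12.7, 15.0 and 16.3 TPM. Kat6a was the higher in each library, by a log2 ratio of 0.51 ± 0.16 over all transcripts and 1.94 ± 0.11 over protein-coding ones, and by 1.44 ± 0.12 in CPM. Kat7, which pairs with the same scaffolds and with Jade proteins, had 10.8, 18.7 and 10.3 TPM, with replicate 2 well above the others.

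Kat2a and Kat2b, alternative catalytic subunits of the SAGA and ATAC coactivator complexes, had similar levels. Kat2a had 15.4, 17.3 and 13.7 TPM and Kat2b 14.7, 17.5 and 18.7 TPM. The log2 ratio of Kat2a over Kat2b was -0.12 ± 0.26 and took both signs across libraries. It was -0.99 ± 0.41 from protein-coding transcripts and -1.48 ± 0.15 when quantified from the reads.

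Among the erasers, the highest was no enzyme. Ncor1, the corepressor that holds and activates Hdac3, had 190, 190 and 197 TPM and stood at percentile 98.9 of protein-coding genes. Its 3 TPM values lay close together, above those of every other member but Brd2. Hdac3, its partner enzyme, had 11.2, 15.2 and 11.2 TPM. The corepressor and its deacetylase differed widely in chromatin RNA, 192 ± 4.47 TPM for Ncor1 and 12.5 ± 2.33 TPM for Hdac3 (SD, n = 3 each).

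Hdac1 and Hdac2, the interchangeable class I enzymes of the Sin3, NuRD and CoREST complexes, were far apart. Hdac1 had 87.3, 88.4 and 108 TPM, and Hdac2 had 3.44, 4.61 and 6.00 TPM. Hdac1 exceeded Hdac2 in each library, by 4.09 ± 0.20 on the log2 scale. The gap was smaller without transcripts that keep introns, at 2.56 ± 0.36 from protein-coding transcripts, where Hdac1 averaged 20.7 ± 2.75 TPM and Hdac2 2.74 ± 0.984 TPM. Of the distinct words of 50 bases in Hdac1 transcripts, 35.5% also occur in another gene, 1121 of them in the processed pseudogene Gm10093. That gene was credited with a mean of 5.23 counts, and Hdac1 with 1113. Both values come from the assignment that had to place the shared reads, so they cannot show where those reads arose. The part of the shared words in the level of Hdac1 was not tested.

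The class IIa deacetylases Hdac4, Hdac5, Hdac7 and Hdac9, repressors that move out of the nucleus on signalling, stood lower. Hdac4 had 8.48, 8.38 and 11.2 TPM. Hdac5 had 10.4, 21.6 and 13.7 TPM. Hdac5 was above Hdac4 in each library, with a log2 ratio of -0.60 ± 0.58 for Hdac4 over Hdac5, but their ranges overlapped and the sign turned in the quantification made from the reads (0.28 ± 0.36). Hdac7 had 3.97, 7.44 and 4.09 TPM. Hdac9 had 5.56, 5.06 and 7.03 TPM. Over all transcripts these last 2 changed places between libraries, with a log2 ratio of -0.19 ± 0.60 for Hdac7 over Hdac9. From protein-coding transcripts Hdac9 was above Hdac7 in every library, at a log2 ratio of -1.06 ± 0.25. Of the exon bases of Hdac4, 22.4% are covered on the opposite strand by the long non-coding RNA Gm26720, which was credited with 5.42 counts. Whether the counting used strand is not given in the sources used here, so that reads of such partners cannot be told apart. Hdac10, a polyamine deacetylase, had 5.40, 10.8 and 8.19 TPM.

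Sirt7, a nucleolar and chromatin sirtuin, led the NAD-dependent enzymes with 60.6, 103 and 78.8 TPM. Sirt6, which acts at chromatin and telomeres, had 18.1, 23.3 and 30.6 TPM. The log2 ratio of Sirt6 over Sirt7 was -1.71 ± 0.38 over all transcripts and -0.30 ± 0.33 over protein-coding ones, so most of the gap lay in transcripts annotated as not coding. Sirt2, mainly a cytosolic tubulin deacetylase, had 46.2, 44.9 and 60.6 TPM. Sirt1, a nuclear enzyme with p65 among its known substrates, had 12.0, 11.2 and 19.1 TPM. Sirt1 stood below Sirt2 in each library, with a log2 ratio of -1.80 ± 0.16. It was -1.06 ± 0.06 by CPM and -2.37 ± 0.06 from protein-coding transcripts. The mitochondrial enzymes were low in the gene tables. Sirt3, a deacetylase, had 3.18, 7.57 and 4.73 TPM, and Sirt5, which removes succinyl and malonyl groups, had 2.32, 3.60 and 3.91 TPM. Hdac11 had 0.470, 0.200 and 0.210 TPM, below every other member in every library.

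Among the readers, Brd2 was the highest of all members, with 216, 230 and 271 TPM and percentile 99.2. Brd2 and Brd3 are BET proteins, whose paired bromodomains bind acetylated histones and couple them to transcription. Brd3 had 4.98, 9.70 and 5.33 TPM and was the lowest reader. The log2 ratio of Brd2 over Brd3 was 5.01 ± 0.52, the widest of the 17 pairs. From protein-coding transcripts it was 2.84 ± 0.50, with Brd2 at 38.9 ± 8.49 TPM and Brd3 at 4.52 ± 0.699 TPM. Opposite-strand genes cover a small part of the Brd2 exons, 4.60% for H2-DMa with 13.3 TPM and 5.18% for CR974462.3 with 8.97 TPM.

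Brd8, the bromodomain subunit of the TIP60 complex, had 47.4, 61.8 and 60.8 TPM. The scaffolds of the MYST acetyltransferases came next. Brpf1 had 32.1, 50.0 and 36.5 TPM. Its relatives were Brd1, with 21.0, 31.6 and 25.8 TPM, and Brpf3, with 15.3, 21.0 and 21.1 TPM. Brpf1 was above both in each library, with a log2 ratio of -0.57 ± 0.08 for Brd1 over Brpf1 and of 1.00 ± 0.23 for Brpf1 over Brpf3. The ratio of Brd1 over Brpf1 was -1.05 ± 0.05 from protein-coding transcripts and -0.19 ± 0.12 from the reads. Brd7 and Brd9, subunits of different SWI/SNF remodelers, had 27.0, 39.9 and 34.6 TPM and 20.9, 32.1 and 27.0 TPM. The log2 ratio of Brd7 over Brd9 was 0.34 ± 0.03, although their ranges overlapped. It was 0.29 ± 0.44 from protein-coding transcripts, 0.23 ± 0.16 by CPM and 0.97 ± 0.14 from the reads, so the SD of 0.03 belongs to TPM over all transcripts.

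**Figure D2:**
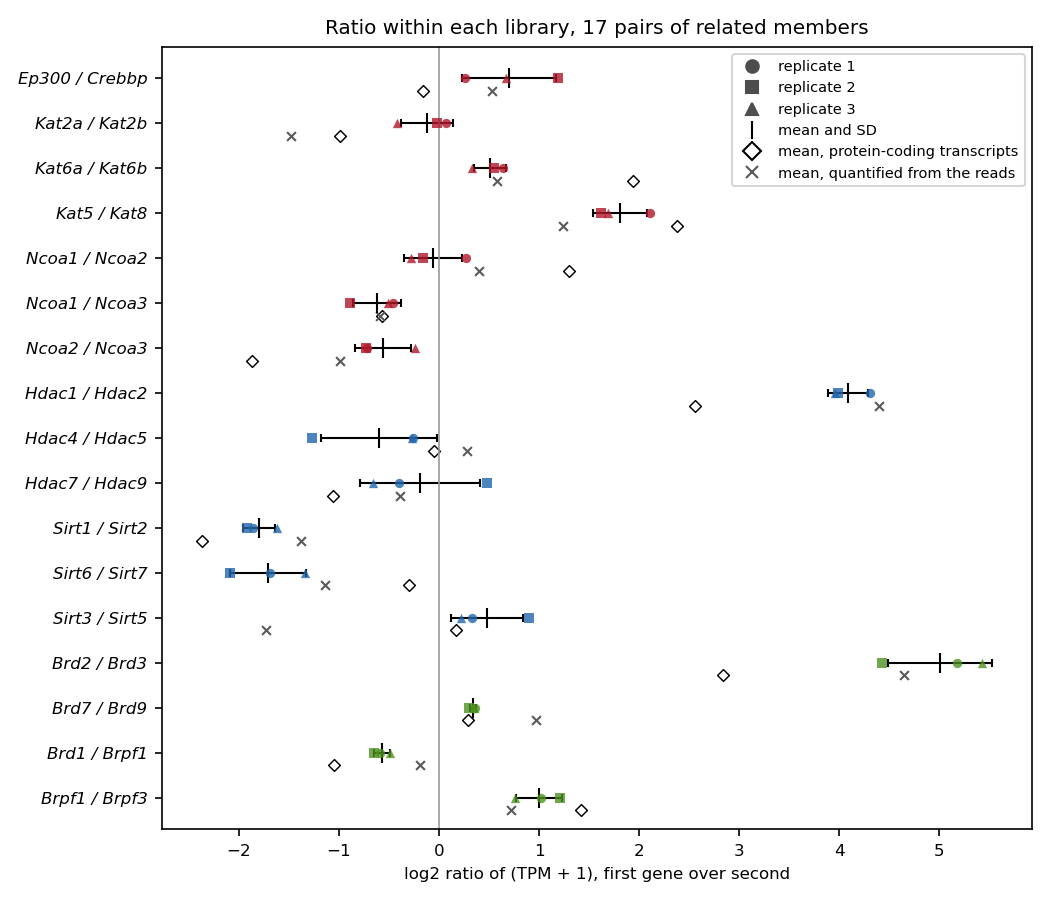
The log2 ratio of (TPM + 1) of the first gene over the second for 17 pairs, with symbols for the replicates, a bar with the mean and SD, a diamond for the mean from protein-coding transcripts and a cross for the mean from the quantification of the reads. Brd2 over Brd3 (5.01) and Hdac1 over Hdac2 (4.09) stand far to the right, and their diamonds (2.84 and 2.56) lie well to the left of the bars.

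Over the 17 pairs, the ratio had 1 sign in all libraries for 14, and the ranges of the genes did not overlap for 11. With 3 libraries the exact two-sided sign-flip permutation test cannot go below p = 0.25, which those 14 pairs reached, so no pair can pass a threshold of 0.05. In the plot of pair ratios, Ncoa1 over Ncoa2, Kat2a over Kat2b and Hdac7 over Hdac9 straddle 0.

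Transcripts annotated as not protein-coding held a median of 51.6% of the TPM of the 35 detected members, at 52.1%, 56.9% and 45.9% in replicates 1, 2 and 3. The median over 8197 protein-coding genes with both kinds of transcript was 47.7%. More than 50% of TPM lay outside protein-coding transcripts in 19 of 35 members, beside 46.4% of those genes. Members were thus near the background of chromatin RNA in this respect. By expected counts, which give short transcripts less weight, the medians were 33.3% for the members and 27.6% for all such genes. Among classes, the median share was 34.9% of TPM for writers, 55.0% for erasers and 54.3% for readers. Quantified from the reads, the same medians were 56.3%, 68.4% and 64.7%, beside 58.3% over all such genes, so writers were again the lowest class but close to all genes.

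**Figure D3:**
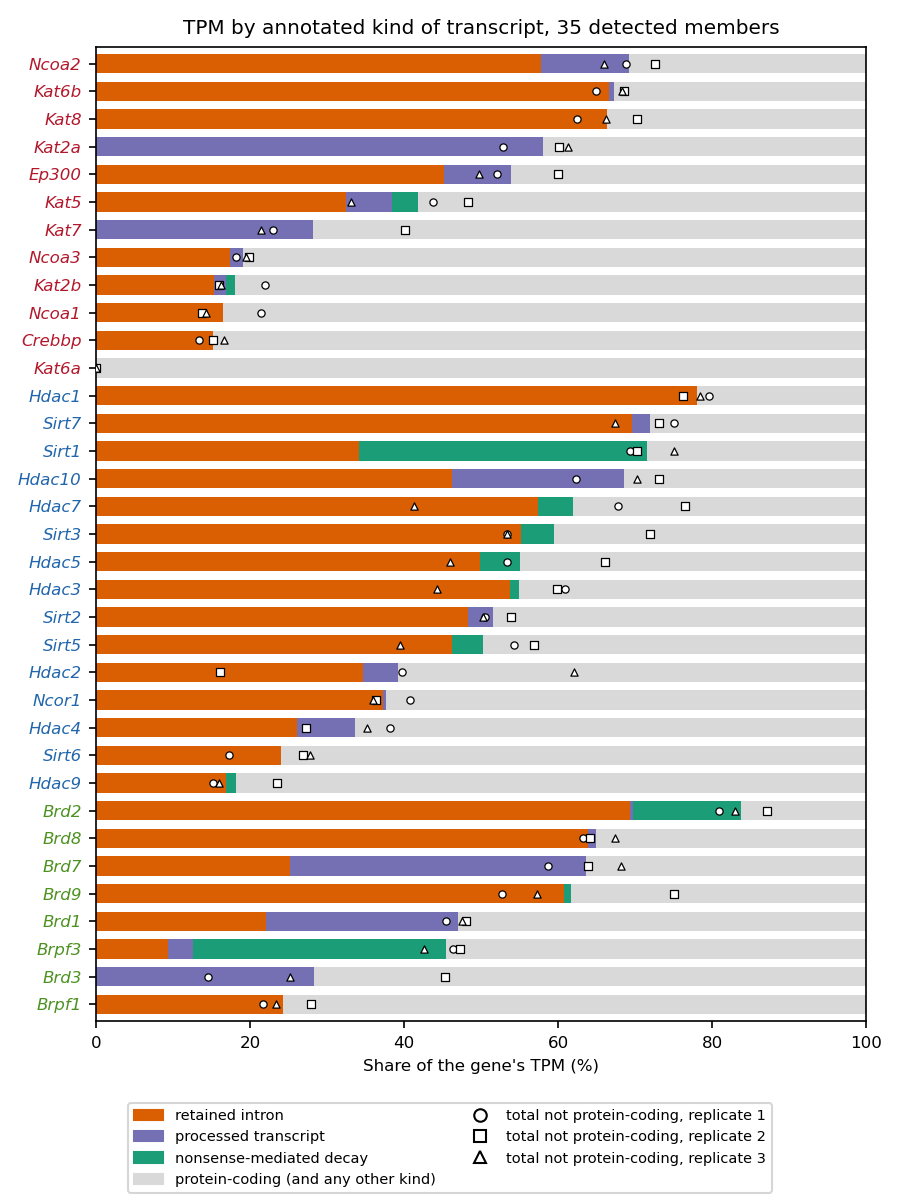
Share of each detected member's TPM by annotated kind of transcript, as the mean of 3 libraries in stacked bars from 0 to 100%, with open symbols for the total not protein-coding in each replicate. Brd2 (83.7%), Hdac1 (78.1%) and Sirt7 (71.8%) have the longest coloured bars, and Kat6a has none.

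The share ran from 83.7% ± 3.20 in Brd2 to 0% in Kat6a (SD, n = 3). After Brd2 came Hdac1 (78.1% ± 1.71), Sirt7 (71.8% ± 3.94), Sirt1 (71.5% ± 3.06) and Ncoa2 (69.1% ± 3.31). The shares of these 5 genes were steady between libraries. In Hdac2 the share was 39.7%, 16.1% and 62.0% in replicates 1, 2 and 3, over a mean of 91.7 counts, and no single value describes it. At the low end were Crebbp (15.1% ± 1.63) and Ncoa1 (16.5% ± 4.28). The only annotated non-coding transcript of Kat6a, Kat6a-203, has 419 bases.

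Retained-intron transcripts made up most of this RNA. Of the 354 annotated transcripts of the members, 170 are protein-coding and 114 are annotated as keeping an intron, spread over 32 members. The median retained-intron share was 34.7% of TPM in the members and 32.8% in all genes of the same kind. Quantified from the reads, it was 42.1% in the members and 30.6% over 9749 genes, so nearness to all genes held for the gene tables only. In Hdac1 these transcripts held 78.1% of TPM, and in Brd2 69.4%. Nonsense-mediated decay transcripts, whose early stop codon marks them for destruction after export, held 37.4% of TPM in Sirt1, 32.8% in Brpf3 and 14.1% in Brd2. These shares depended on the quantification. From the reads they were 9.44% in Sirt1, 10.5% in Brpf3 and 7.51% in Brd2. In Kat2a (58.1%), Brd7 (38.5%), Brd3 (28.3%), Kat7 (28.1%) and Brd1 (25.0%) the largest non-coding part was of processed transcripts, which have no reading frame assigned. For Kat2a, Brd3 and Kat7 the annotation lists no other non-coding kind, so this outcome was fixed.

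The leading transcript, the one with the highest mean TPM, was not protein-coding in 12 of 35 members, beside 38.6% of the 8197 genes. It was also the highest in each of the 3 libraries for 21 of all 36 members. Among the 12, Hdac7-211 was highest in 1 library, and Ncoa2-206 and Sirt5-208 in 2. Hdac1-206, 844 bases long with the intron shown above, held 56.7%, 43.7% and 64.2% of Hdac1 TPM. The protein-coding Hdac1-201 held 21.9% ± 1.71 of TPM (SD, n = 3). By expected counts their order turned, with means of 437 for Hdac1-206 and 515 for Hdac1-201. Sirt7-205 held 37.4%, 39.6% and 37.4% of Sirt7 TPM and also led by counts, with a mean of 723 beside 355 for the protein-coding Sirt7-201. Brd8-207, 4335 bases long with 1177 bases outside the exons of protein-coding transcripts, held 38.0%, 36.7% and 39.2% of Brd8 TPM. Sirt7 and Brd8 thus had a leading transcript that was both long and stable in share.

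Brd2 was divided among many transcripts. Brd2-204, which holds the retained intron shown above, had 51.1, 54.4 and 56.6 TPM, or 22.7% ± 1.62 of the gene (SD, n = 3). Further retained-intron transcripts, Brd2-215 and Brd2-205, held 14.3% and 13.4%. By expected counts the nonsense-mediated decay transcript Brd2-207 was highest, with a mean of 1681. The protein-coding Brd2-202 had 720 and Brd2-204 had 539. Of the bases of Brd2-204, 35.9% lie outside the exons of protein-coding transcripts. That share was 72.5% for Kat6b-213, 64.2% for Ncoa2-206, 32.3% for Hdac1-206 and 11.2% for Sirt7-205. Most of Sirt7-205 is therefore sequence that coding transcripts of Sirt7 also hold, while most of Kat6b-213 and Ncoa2-206 is not.

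The other leading transcripts outside the coding class were Kat8-204 (45.5% of TPM), Kat2a-204 (49.7%), Hdac7-211 (31.3%), Sirt5-208 (33.8%), Sirt1-205 (37.4%) and Ncor1-207 (16.4%). Sirt1-205 is a nonsense-mediated decay transcript, Kat2a-204 a processed transcript, and the remaining 4 keep an intron. Of the bases of Sirt1-205, 3.61% lie outside the exons of protein-coding transcripts. Ncor1-207 is only 566 bases long, with a mean of 143 counts beside 2447 for the protein-coding Ncor1-204, which held 10.7% of TPM. For Hdac7 and Sirt5 the share in the leading transcript varied widely, at 25.7%, 49.5% and 18.8% for Hdac7-211 and 51.3%, 30.8% and 19.2% for Sirt5-208. Ncoa2-206 held only 15.8% of Ncoa2 TPM, with a mean of 197 counts beside 471 for the protein-coding Ncoa2-202. Quantified from the reads, Ncoa2-207 led instead, with 21.3%.

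**Figure D4:**
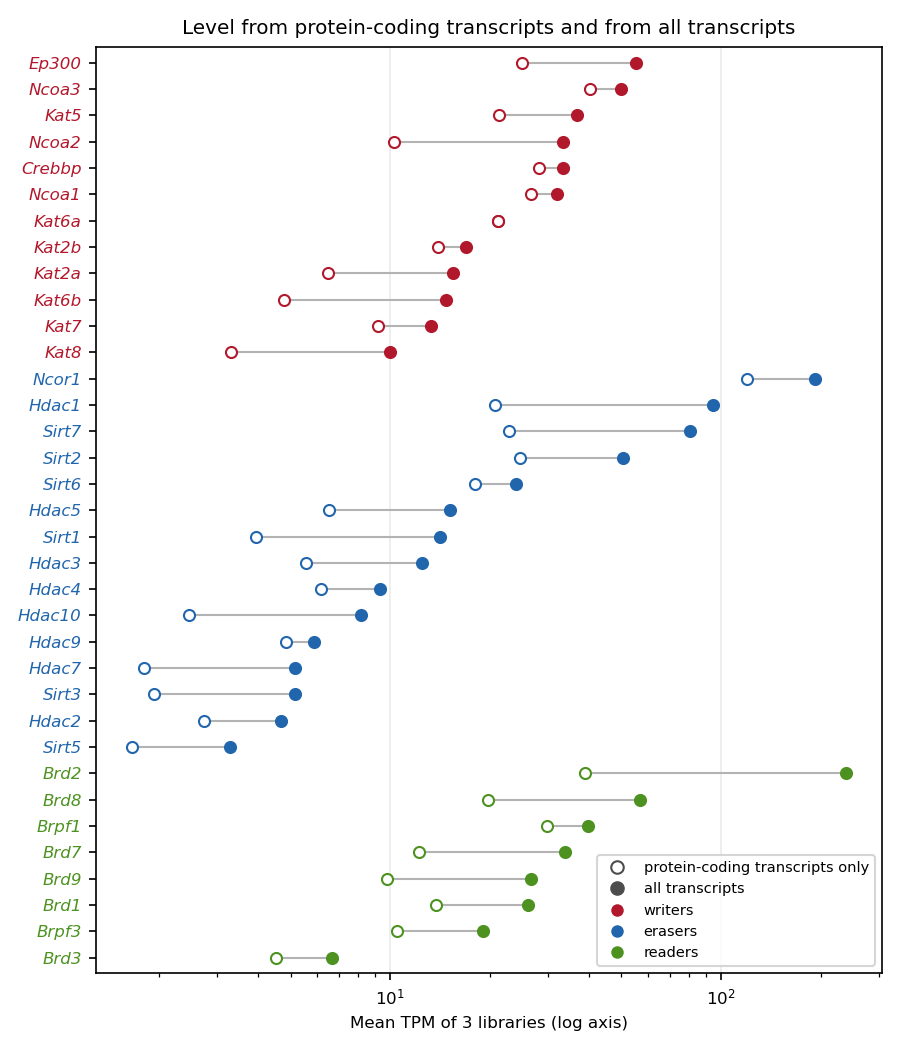
Mean TPM of 3 libraries on a log axis for each detected member, from protein-coding transcripts only (open circles) and from all transcripts (filled circles), joined by a line. The longest lines are those of Brd2 (38.9 and 239 TPM) and Hdac1 (20.7 and 94.6 TPM), while the circles of Kat6a coincide.

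Counting only protein-coding transcripts changed the order at the top. Ncor1 then led with 113, 121 and 127 TPM, Ncoa3 followed at 39.2, 46.5 and 35.1 TPM, and Brd2 had 41.1, 29.5 and 46.0 TPM. Ncor1 stood apart from all other members, and Brd2 and Ncoa3 overlapped. Brpf1 (29.7 ± 5.68 TPM) and Crebbp (28.2 ± 4.26 TPM) completed the first 5 (SD, n = 3 each). Hdac1 moved to place 12. The median percentile of the members among protein-coding genes counted the same way was still 86.6.

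The second deposited quantification, made directly from the reads, gave higher values for many members. The median ratio of its mean TPM to that of the gene tables was 1.29 for the members and also 1.29 for all detected protein-coding genes. It was more than 1.5 times higher for 11 detected members, beside 36.9% of detected protein-coding genes. It was lower by the same factor for 0 members, beside 0.867% of those genes. The 11 were Sirt5, Sirt1, Kat2b, Kat7, Hdac4, Sirt2, Ncoa1, Brd7, Kat6a, Hdac9 and Ncoa3, in falling order of the ratio.

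Sirt5 differed most, with 21.2, 22.1 and 27.3 TPM from the reads, 7.18 times the mean of the gene tables. The protein-coding transcript Sirt5-209 held 82.4% ± 0.684 of Sirt5 TPM there and 27.3% ± 1.53 in the gene tables (SD, n = 3 each). Of the words of 50 bases in Sirt5-209, 36.9% also occur in transcripts of 692 other genes, beside 1.19% of those in Sirt5-208. The part of these shared words in the difference was not tested. With this quantification Sirt5 stood above Sirt3 rather than below it, at a log2 ratio of Sirt3 over Sirt5 of -1.73 ± 0.52 beside 0.48 ± 0.36 from the gene tables.

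Sirt1 had 30.7, 28.8 and 38.6 TPM from the reads, and 53.6% of it lay in the retained-intron transcript Sirt1-206, of 842 bases, which held 8.70% in the gene tables. Kat6a had 33.4, 33.5 and 30.2 TPM, with 43.9% in the processed transcript Kat6a-203, of 419 bases, which was at 0 in the gene tables. Kat2b had 37.5, 34.0 and 33.8 TPM, with 29.9% in the retained-intron transcript Kat2b-205, of 450 bases, beside 9.84% in the gene tables. In each of these 3 genes a short transcript without a coding sequence took a larger share from the reads than in the gene tables.

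Kat7 had 22.3, 34.6 and 24.3 TPM from the reads, and Hdac4 had 16.9, 18.5 and 21.3 TPM. Sirt2 had 82.3, 74.3 and 103 TPM. Ncoa1 had 64.4, 42.1 and 44.5 TPM, and Ncoa3 had 84.7, 78.8 and 62.4 TPM. Replicate 1 was the highest for both coactivators. Brd7 had 54.1, 59.5 and 46.0 TPM, and Hdac9 had 8.91, 8.73 and 9.33 TPM. Hdac11 remained the lowest member, with 0.826, 0.163 and 0.443 TPM.

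**Figure D5:**
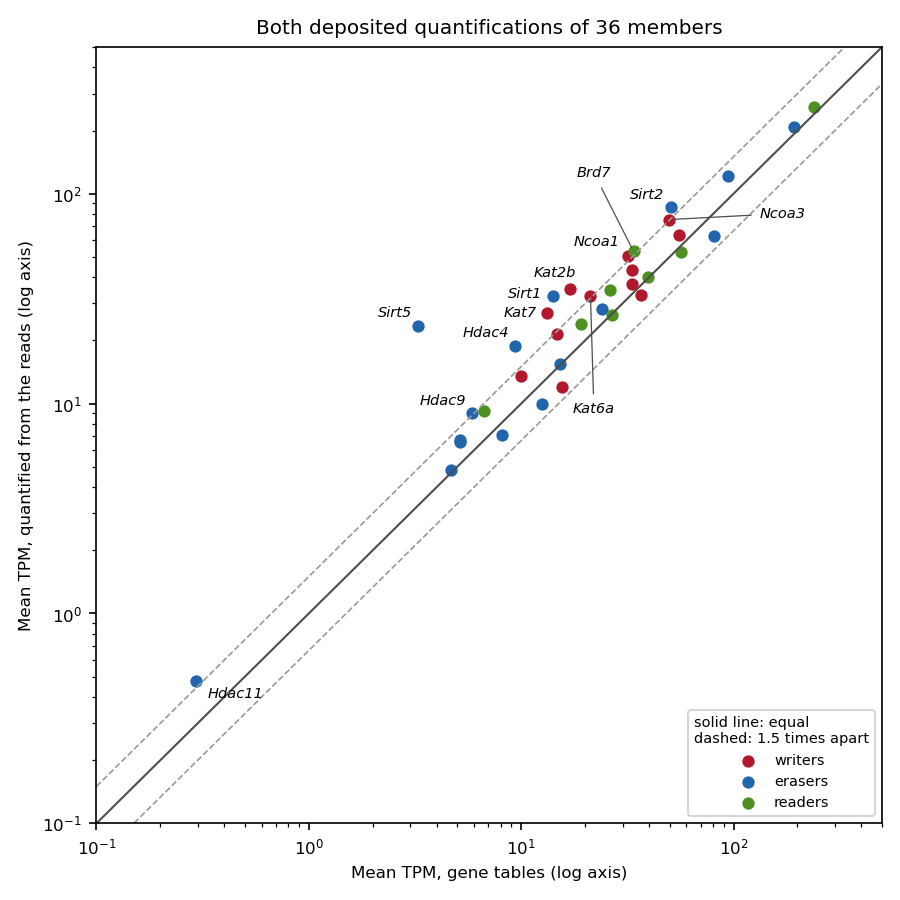
Mean TPM of the 36 members in the gene tables (horizontal) and as quantified from the reads (vertical), both on log axes, with a solid line for equal values and dashed lines at 1.5 times. Sirt5 lies farthest above the line (3.28 and 23.5 TPM), and Brd2 (239 and 258 TPM) and Ncor1 (192 and 207 TPM) lie close to it.

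The transcript assigned as leading was the same in both quantifications for 14 of the 35 detected members. From the reads it was not protein-coding in 21 of 35 members, near the 56.7% of 9749 genes quantified that way, and 10 members had a leading transcript of that kind in both. The share of all genes was not taken for the 14 or the 10, so neither can be called particular to the members. The retained-intron leads of Hdac1, Sirt7, Brd8, Kat6b, Hdac7 and Ncor1 were the same in both. From the reads, Hdac1-206 held 45.0%, Sirt7-205 37.7% and Brd8-207 35.4%. Kat6b-213 held 34.8%, Hdac7-211 54.0% and Ncor1-207 13.0%. For Brd2 the leads differed: Brd2-217 held 20.6% from the reads and 0.946% in the gene tables, but the total not protein-coding was 86.4% and 83.7%. The kind of transcript was thus more stable than its identity in Brd2.

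Between libraries, 28 of the 35 members in the fit varied beyond counting noise at an adjusted p under 0.05 (chi-square test against Poisson sampling, Benjamini-Hochberg over 14330 genes), beside 54.9% of all genes. Without replicate 2 the count was 12 of 35, beside 27.9% of all genes. This test calls smaller spreads at higher counts, and the members and all genes were not matched for counts. These shares therefore do not show that the members varied more. The libraries were made from 1 µg, 250 ng and 500 ng of RNA in replicates 1, 2 and 3, and the part of this difference was not tested. Beyond the spread of genes of like abundance (edgeR's quasi-likelihood fit, Benjamini-Hochberg), 0 of 35 members were called, beside 0.0209% of all genes. With 3 libraries this test called only 3 of 14330 genes, so 0 of 35 does not show that the members lack excess spread. At an unadjusted p under 0.05 there were also 0 members, beside 5.28% of all genes. DESeq2 marked 102 of 14330 genes as dispersion outliers and 0 members, a share of all genes too small for 0 to set the members apart. The median SD of log2 CPM was 0.20 for the members and 0.26 over all genes fitted, with 0.18 for writers, 0.24 for erasers and 0.10 for readers.

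The largest spreads were those of Sirt3, Sirt1 and Sirt2. Sirt3 had an SD of 0.49 on the log2 CPM scale, with values of 2.41, 3.37 and 2.74 in replicates 1, 2 and 3. Ric8a and Psmd13 overlap Sirt3 exons on the opposite strand, with means of 477 and 208 counts beside 122 for Sirt3. Of the words of 50 bases in Sirt3 transcripts, 10.6% also occur in these genes. That share was 26.8% for the leading Sirt3-202 and 0% for Sirt3-209, which led from the reads. The part of the shared words in the level and spread of Sirt3 was not tested. Sirt1 had an SD of 0.40, with values of 4.92, 4.43 and 5.22. Sirt2 had an SD of 0.36, with values of 6.04, 5.55 and 6.24. Sirt1 and Sirt2 were both lowest in replicate 2 and highest in replicate 3, whereas Sirt3 was highest in replicate 2. The class IIa enzymes Hdac9 and Hdac7 followed, with SDs of 0.34 and 0.31. The other sirtuins had smaller SDs, 0.29 for Sirt5, 0.24 for Sirt6 and 0.16 for Sirt7. Hdac9 was lowest in replicate 2, at 3.56 beside 3.98 and 4.23 in replicates 1 and 3, and Hdac7 was highest there, at 3.87 beside 3.56 and 3.25.

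The steadiest members were Brd9 and Brd8, each with an SD of 0.06 on the log2 CPM scale, and Ep300 and Kat2b, each with 0.07. Brd9 had values of 5.36, 5.47 and 5.46. Brd9 and Kat2b were among the 7 members whose spread did not exceed counting noise in this test. Ncor1, with the most counts, had an SD of only 0.20, and yet its adjusted p was 2.78e-53 in the chi-square test. Sirt3, with the largest SD but a mean of 122 counts, had an adjusted p of 1.70e-06 in the same chi-square test.

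Partner genes of the members were mostly detected as well. All 38 acetyltransferase complex subunits listed were detected, with a median percentile of 78.4 and Phf20, a subunit of the NSL complex of Kat8, highest at 128 ± 12.5 TPM (SD, n = 3). All 31 deacetylase complex subunits listed passed the same limit and had a median percentile of 82.4, with Chd4, the NuRD remodeler, highest at 132 ± 15.8 TPM. Of 30 further bromodomain and YEATS genes, 29 passed, and their median percentile was 92.6. Sp100 (426 ± 19.8 TPM) and Sp110 (304 ± 16.2 TPM), speckled proteins known as interferon-induced, stood above Brd2. Of 11 genes of acetyl-CoA and NAD supply, 10 passed, with 74.8 as the median percentile, led by Nampt (122 ± 42.7 TPM), which makes the NAD precursor used in salvage.

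Other chromatin regulators were as high as the members or higher. The median percentile was 91.0 over 44 histone methyltransferases and demethylases and 91.4 over 28 ATP-dependent remodelers, beside 86.6 for the members. The top decile held 14 of 36 members (38.9%), 23 of 44 methyltransferases and demethylases (52.3%) and 18 of 28 remodelers (64.3%). A high place among protein-coding genes was therefore shared by chromatin regulators of other kinds, and no test of a difference between these lists was made.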

How the data were processed

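The 3 libraries were total RNA-seq of chromatin-fraction RNA, analysed as 1 group. The authors deposited a gene table and a transcript table per library, laid out as RSEM writes them, with expected counts and TPM from reads aligned to annotated transcripts (mm10, GENCODE M21), per the file headers and notes. Their transcript tables also give each transcript's percent of its gene's TPM as deposited, which was not used further. A further deposited transcript table, laid out as kallisto writes it, holds estimated counts and TPM taken straight from the reads. The sources used here do not give program versions or the use of strand. Entries that name no annotated gene held 0.279% to 1.13% of counts and were left out.

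The members, pairs and lists were chosen with earlier results of these data known. A gene was detected at a mean of 10 expected counts. Percentiles are ranks of mean log2(TPM + 1) among protein-coding genes. Counts were rounded and scaled by TMM in edgeR 4.0.16 (R 4.3.3), with genes under a mean of 10 counts left out, and DESeq2 1.42.0 served as the alternative. The spread was tested against Poisson sampling by chi-square and against the fitted trend by edgeR's quasi-likelihood dispersion (F test, one-sided), with Benjamini-Hochberg adjustment over all genes fitted. Both tests were tested on simulated data. Shares of TPM by annotated kind of transcript were taken within each library for genes averaging 1 TPM or more. Words of 50 bases were compared on both strands over all annotated transcripts. All 36 members are named. Values of every library are given by rule for the 4 highest and the 2 lowest members of a class, for pairs whose ranges do not overlap and for members whose quantifications differ by over 1.5 times, and transcripts for members with a leading transcript that is not protein-coding or with 1 of the 5 highest shares. Values of the remaining members are given beside them. Alternatives were CPM, another pseudocount, other filters and scalings, the quantification from the reads, protein-coding transcripts only, and leaving out each replicate. Python 3.11.15 was used with pandas 2.3.3, numpy 2.4.6 and scipy 1.17.1.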

Additional observations from a re-analysis of the deposited data

How the results depend on the processing

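No paired analysis was possible because all libraries belong to 1 group. The number of members detected stayed within 1.5 times under all alternatives run, as did the number of pairs with 1 sign. The median percentile of the members was 88.3 by CPM, 74.3 among detected genes and 87.1 from the reads. For writers it was 92.1 by CPM, 77.9 among detected genes, 88.3 from the reads and 91.3 from protein-coding transcripts. For erasers it was 62.3 among detected genes and 78.6 from protein-coding transcripts, and for readers 91.5 by CPM, 80.3 among detected genes, 89.2 from the reads and 88.9 from protein-coding transcripts. Leaving out 1 replicate gave 88.4 to 89.3 for writers, and 12 to 26 members varying beyond counting noise, where 12 was without replicate 2, beside 27.9% to 43.5% of all genes. Members varying beyond the trend stayed at 0 under all alternatives run, and the main fit called only 3 of 14330 genes. The median share not protein-coding was 62.0% from the reads (58.3% over all genes) and 33.3% by expected counts (27.6%), and members with a non-coding leading transcript numbered 21 from the reads, beside 56.7% of genes. Log2 ratios turned in sign for Ep300 over Crebbp from protein-coding transcripts (-0.16) and, from the reads, for Hdac4 over Hdac5 (0.28) and Sirt3 over Sirt5 (-1.73), and the cause was not tested. The comparisons from protein-coding transcripts and by expected counts were chosen after seeing the data. Depth limits Hdac11, with a mean of 6.92 counts. The transcript shares of Hdac2, Sirt5 and Kat8 rest on means of under 100 counts in the gene tables. For Sirt5 the mean was 57.3 there and 1063 from the reads, so depth alone does not set it.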
